A study of Homo sapiens with 7 samples.

Results

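Cells sorted on day 3 of cardiac differentiation as CD13+/ROR2+ were compared with CD13-/ROR2- cells of the same day, with a look at transcription factors, receptors, ligands and adhesion genes. The 2 libraries compared were chosen by their labels from 7 in the series, and 21579 of the 23368 genes in the table were described after symbols of small RNA and histone genes and blank entries were left out. All samples carry the same pair of reporters in a human embryonic stem cell (hESC) line labelled H3, an eGFP reporter named for NKX2-5, a heart factor, and an mCherry reporter named for alpha-MHC, the cardiac myosin heavy chain, so the reporters are shared by every group. The number in the name of the eGFP reporter counts upward from sample to sample in the labels, and the samples were treated as 1 line. CD13 is the surface aminopeptidase encoded by ANPEP, and ROR2 is a receptor tyrosine kinase that binds WNT5A. The CD13+/ROR2+ fraction is labelled a mesoderm progenitor and the CD13-/ROR2- fraction an endoderm progenitor. The labels name no differentiation agent. Cells with only one of the surface proteins were not analysed here. The other 5 libraries are read as levels beside this pair. They are hESC before differentiation (day 0), the day 7 fractions NKX2-5+ and NKX2-5-, and the day 14 NKX2-5+ fractions aMHC+ and aMHC-, and the labels of day 7 and day 14 carry the CD13+/ROR2+ gate too. The day 3 pair is called double-positive (CD13+/ROR2+) and double-negative (CD13-/ROR2-) below.

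In the embryo, cells that leave the primitive streak lose epithelial junctions, migrate, and meet NODAL, WNT, BMP and FGF signals whose strength helps to set whether they become endoderm, heart mesoderm or other mesoderm. The streak itself secretes antagonists of these same signals. Migrating cells carry chemokine, apelin, ephrin and semaphorin receptors that read cues from the cells around them, and they exchange E-cadherin for N-cadherin.

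Each group is 1 library, so no difference has a replicate check and no test is possible. Levels are in FPKM (fragments per kilobase of transcript, scaled to sequencing depth). A gene was counted as higher or lower when log2 of (FPKM + 1) in CD13+/ROR2+ over (FPKM + 1) in CD13-/ROR2- was at least 2 in size and the larger of both levels reached 5 FPKM. Reads were 50 nucleotides long, and at the minimum depth that the labels state, 1 FPKM on a transcript of 2 kb is about 24 reads. Steps between low values place the CD13+/ROR2+ library at 2.0 times the depth of the CD13-/ROR2- library, with 4.06 times as many genes at that ratio as at the ratios beside it. Genes of at least 1 FPKM numbered 10545 and 10653. The 13 housekeeping genes had a median log2 ratio of -0.06, and none was counted as different. A listed 0 can be a failed estimate in this table, because ARPC2 and HNRNPD, which most cells use, stood at 0 in CD13-/ROR2- against 129 and 133 FPKM in CD13+/ROR2+.

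The sort genes followed the gates at the RNA level. ANPEP stood at 12.0 FPKM in double-positive cells and 0.984 in double-negative cells, and ROR2 at 20.6 and 3.16. ROR2 RNA was thus present in the ROR2- fraction, and its close relative ROR1 stood at 9.47 and 10.8 FPKM. APLNR, the apelin receptor of migrating mesoderm, stood at 321 and 8.79 FPKM, and SOX2, a factor of pluripotent and neural cells, at 0.295 and 68.0.

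The label "endoderm progenitor" of the double-negative fraction was read against 13 definitive endoderm markers. Of these, 9 were higher in double-positive cells and 0 in double-negative cells, and their summed level was 2037 FPKM in double-positive cells (1736 of it CER1) against 42.2 in double-negative cells and 5.39 in hESC. FOXA2, a defining endoderm factor, stood at 3.88 FPKM in double-positive cells and 0.0874 in double-negative cells, while FOXA1 was at 0.013 and listed at 0. SOX17, on the same list, was among the higher ones, at 17.8 FPKM in double-positive cells (log2 ratio 2.34). The double-negative fraction is therefore called by its gate here. Of 11 cardiac and lateral mesoderm markers that reached 5 FPKM, 7 were higher in double-positive cells and 0 lower, with a median log2 ratio of 2.18 over all 12 in the list. Their summed level was 639 FPKM in double-positive cells (321 of it APLNR), 61.3 in double-negative cells and 15.8 in hESC. The double-positive library, labelled a mesoderm progenitor, thus held RNA of both marker lists. Some members of the endoderm list, such as EOMES and CXCR4, are used by mesoderm as well. The list therefore does not by itself tell endoderm from mesoderm in this library. The double-negative library held all 12 pluripotency markers at 1 FPKM or more. Their summed level there was 975 FPKM, against 1016 in hESC and 413 in double-positive cells (171 of it TDGF1). Of 11 that reached 5 FPKM, 5 were lower in double-positive cells and 0 higher, with a median log2 ratio of -1.62 over all 12. NANOG (log2 ratio -4.10) and DPPA4 (-2.74) were among the lower ones. L1TD1, an RNA-binding protein of stem cells, differed less. It was at 102 FPKM in double-negative cells, 67.5 in double-positive cells and 152 in hESC.

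Markers of other cell types were read in both fractions. Of 14 trophoblast and amnion markers, 7 reached 1 FPKM in double-negative cells and 3 in double-positive cells; the summed levels were 42.0 and 123 FPKM, with 118 of the latter from HAND1, which heart mesoderm shares. CDX2, a trophoblast and tailbud factor, stood at 1.63 FPKM in double-negative cells and was listed at 0 in double-positive cells, while KRT7 and VTCN1 were below 1 FPKM in both. None of 10 blood and endothelial markers reached 1 FPKM in either fraction (summed levels of 1.41 and 1.11 FPKM), and 1 of 10 neural and surface ectoderm markers reached 5 FPKM, NES, at 10.8 and 16.9. Of 10 paraxial mesoderm markers, DLL3 alone reached 5 FPKM. The part of such cells in the differences below was not tested, and in bulk RNA fewer cells of a type and less RNA per cell cannot be told apart.

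In all, 176 genes were higher in double-positive cells and 138 lower, which is 3.05% and 2.39% (5.44% together) of the 5772 genes that reached 5 FPKM on either side. The 37 families of the 4 roles (transcription factors, receptors, ligands, adhesion) hold 906 of the 21579 genes, and 261 of them reached 5 FPKM. Of these 261, 57 were higher (21.8%) and 34 lower (13.0%). The families were chosen with earlier results of these data known, and they include the sort gene ROR2 and the markers APLNR and SOX2. Their shares are therefore no independent comparison with all genes. The median log2 ratio over family genes of at least 1 FPKM was 0.01, against 0.02 over all such genes. With a pseudocount of 5 in place of 1 the overall counts were 65 and 32.

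**Figure D1:**
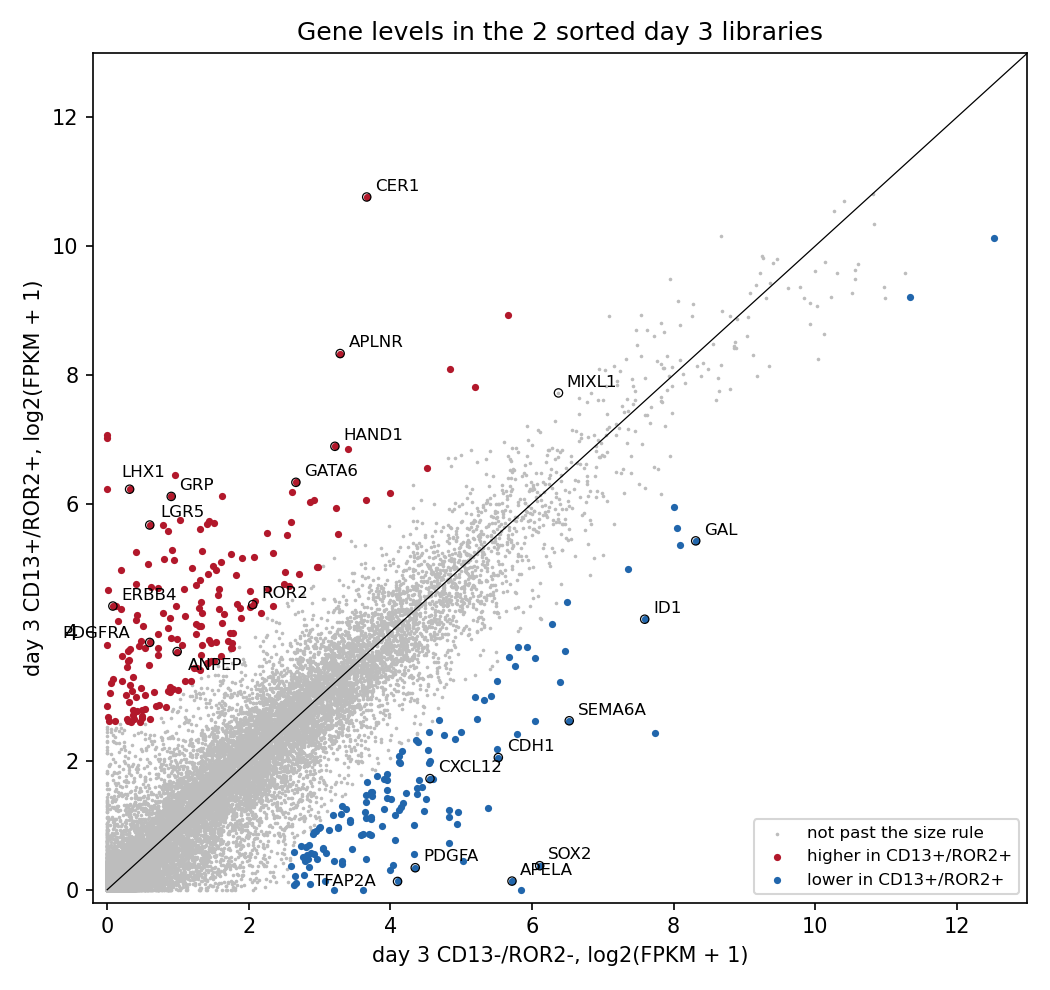
Levels of 21579 genes in the day 3 CD13-/ROR2- library (x axis) and CD13+/ROR2+ library (y axis), both as log2(FPKM + 1), with the line of equal levels. Red points are the 176 genes counted as higher in CD13+/ROR2+ and blue points the 138 counted as lower; ringed points are named, and CER1 lies farthest above the line.

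The families split by role. Among 61 receptor genes of at least 5 FPKM, 15 were higher and 3 lower. Ligands gave 17 higher and 9 lower of 60, transcription factors 14 and 10 of 72, and adhesion genes 11 and 12 of 68. The share of higher receptors was 24.6% and that of lower receptors 4.92%, against 16.2% and 17.6% for adhesion genes. Over all 5772 genes of at least 5 FPKM the shares were 3.05% and 2.39%. The shares by role too come from lists chosen with earlier results known, and the higher receptors include ROR2 and APLNR.

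**Figure D2:**
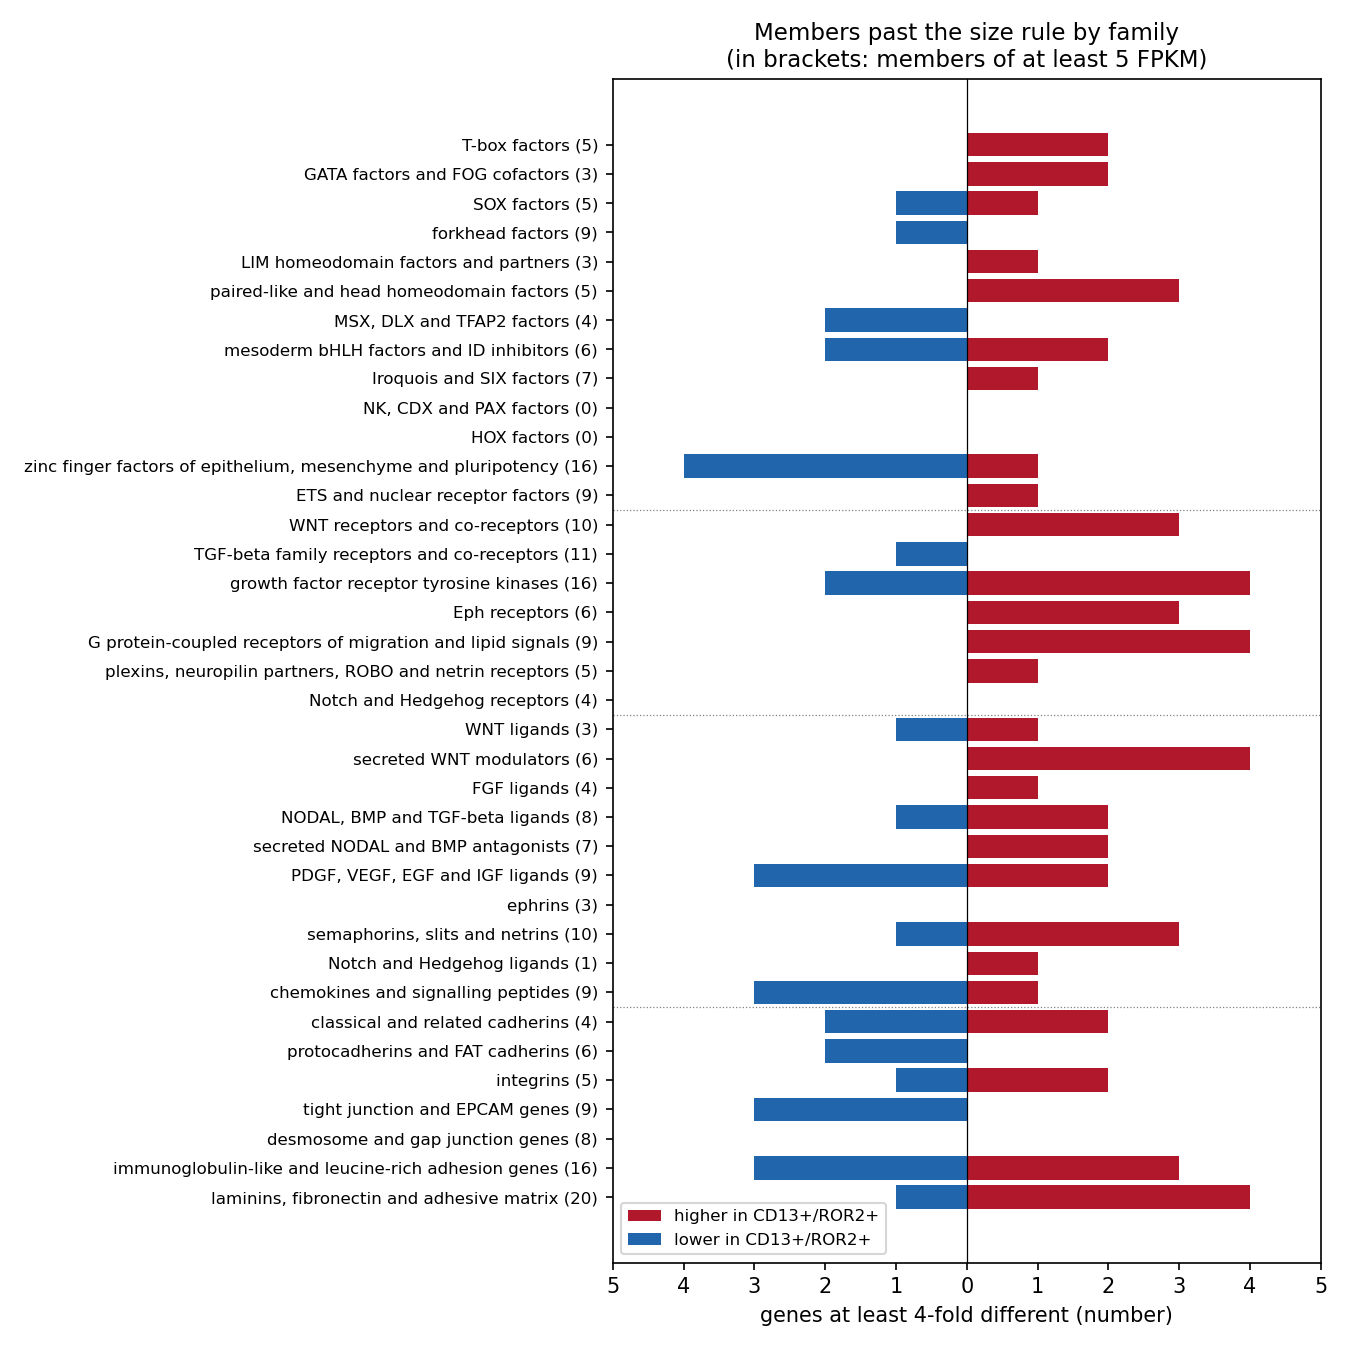
Number of members counted as higher (red, to the right) or lower (blue, to the left) in CD13+/ROR2+ for each of 37 families, with transcription factors at the top, then receptors, ligands and adhesion genes between dotted lines. The number in brackets is the count of members of at least 5 FPKM in either library; Eph receptors, WNT receptors and secreted WNT modulators have members on the red side only.

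Sequence just upstream of the start site is shown for 3 regulators. CER1 is the gene with the highest ratio, and SOX2 the gene with the lowest ratio among those above 0 in both libraries. MIXL1 is a streak gene abundant in both fractions, with more in double-positive cells but short of the 4-fold rule. The 250 bases come from RefSeq (GRCh38.p14), 5′ to 3′ on the gene's strand, and capitals mark a match, on either strand, to one of 5 short words searched: CACCTG (an E-box that SNAI factors bind), TGTGGATT (FOXH1), AGGTGTGA (T-box factors), TAATCC (bicoid-type homeodomain factors such as OTX2 and GSC) and ATTTGCAT (the octamer of POU factors).
CER1, chr9:14722734-14722983, minus strand: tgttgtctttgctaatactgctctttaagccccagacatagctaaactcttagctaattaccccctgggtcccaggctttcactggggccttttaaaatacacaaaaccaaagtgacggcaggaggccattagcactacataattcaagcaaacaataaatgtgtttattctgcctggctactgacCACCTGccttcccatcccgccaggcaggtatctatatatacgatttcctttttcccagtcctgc
MIXL1, chr1:226223414-226223663, plus strand: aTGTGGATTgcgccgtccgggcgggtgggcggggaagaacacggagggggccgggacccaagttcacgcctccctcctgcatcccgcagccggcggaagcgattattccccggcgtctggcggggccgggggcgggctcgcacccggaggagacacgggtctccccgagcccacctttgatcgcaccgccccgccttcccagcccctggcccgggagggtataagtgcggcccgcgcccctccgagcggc
SOX2, chr3:181711675-181711924, plus strand: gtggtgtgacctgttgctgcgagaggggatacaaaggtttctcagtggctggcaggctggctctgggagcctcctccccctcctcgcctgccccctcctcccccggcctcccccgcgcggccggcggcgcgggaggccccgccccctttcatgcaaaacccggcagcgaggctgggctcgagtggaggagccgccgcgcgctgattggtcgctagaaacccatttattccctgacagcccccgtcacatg
The CER1 window holds an E-box word, the MIXL1 window a FOXH1 word, and the SOX2 window none of the 5. Over all 35116 promoters in the table the E-box word was in 17.5% and the FOXH1 word in 0.709%. Among the genes counted as higher, 116 of 176 matched by symbol, and the E-box word was in 16.4% of them. Among those counted as lower, 86 of 138 matched, and it was in 24.4%, against 13.5% of the 4340 matched genes of at least 5 FPKM. The T-box word was in 1 promoter of the higher genes and 0 of the lower, against 0.461% of those 4340. The FOXH1 word was in none of either set, against 0.323%. At such low shares, sets of this size are too small to show a difference. TAATCC was in 5.17% of the higher and 5.81% of the lower genes, against 3.57%. The octamer was in 2.59% (3 promoters) and 1.16% (1 promoter), against 1.13%. Median GC content was 63.2% for higher, 64.2% for lower and 64.8% for all matched genes of at least 5 FPKM.

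Among homeodomain factors higher in double-positive cells were OTX2, GSC, HHEX and LHX1, which the embryo uses in the organizer and anterior region. The paired-like and head homeodomain family had 5 members of at least 5 FPKM, of which 3 were higher and 0 lower, with a median log2 ratio of 1.34. OTX2, a factor of the anterior embryo, stood at 37.3 FPKM in double-positive cells, 1.53 in double-negative cells and 3.24 in hESC. GSC, a repressor of the organizer, stood at 20.2 and 0.963 FPKM and was listed at 0 in hESC and in all later libraries. HHEX, an early endoderm and blood vessel factor, stood at 7.43 and 0.577 FPKM. The other members of at least 5 FPKM had ratios above 0 too. MIXL1 was at 210 and 82.0 FPKM, short of the 4-fold rule. LHX1, a LIM homeodomain factor that works with GSC and OTX2 in the organizer, stood at 73.7 and 0.245 FPKM and at 0.159 FPKM or less in the other 5 libraries. Its cofactors did not differ in this way: LDB1 was at 15.2 and 19.6 FPKM and LDB2 at 19.0 and 18.1.

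The GATA family had 2 members higher of 3 that reached 5 FPKM. GATA4, an early heart and endoderm factor, stood at 47.4 FPKM in double-positive cells, 1.48 in double-negative cells and 0.121 in hESC, and stayed between 47.1 and 53.2 FPKM in the 4 later libraries. GATA6 was at 79.4 and 5.34 FPKM on day 3 and lower afterwards, at 7.92 to 24.7 FPKM. GATA3, which marks trophoblast and surface ectoderm, was at 2.92 and 5.08 FPKM. Among T-box factors 2 of 5 were higher. EOMES, which drives endoderm and heart mesoderm, was at 71.0 and 14.9 FPKM, and TBX20, a factor of the forming heart, at 5.17 and 0.228, reaching 141 FPKM in day 7 NKX2-5+. T, which encodes brachyury, pointed the other way without passing the rule, at 7.32 and 18.7 FPKM, and TBX6, a paraxial mesoderm factor, was at 4.25 and 1.72. TBX20 fell under the 5 FPKM minimum after median-ratio scaling.

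The mesoderm bHLH factors and ID inhibitors that passed the rule took opposite sides, 2 higher and 2 lower of 6. HAND1, a factor of heart and extraembryonic mesoderm, stood at 118 FPKM in double-positive cells and 8.29 in double-negative cells. MESP1, which specifies heart mesoderm, stood at 10.7 and 1.84 FPKM, and fell just short of the rule after median-ratio scaling (log2 ratio 1.95 in place of 2.04). Its neighbour MESP2, of the somite, was at 14.6 and 3.78 FPKM, with a log2 ratio of 1.70. ID proteins bind bHLH partners and keep them off DNA. ID1 was at 17.4 FPKM in double-positive cells, 192 in double-negative cells and 20.7 in hESC, so that the double-positive library lay near the hESC level. ID2 stood at 8.44 FPKM, 44.3 and 3.07, respectively. ID3 (15.8 and 39.1 FPKM) and ID4 (0.209 and 4.08) had ratios of the same sign without passing the rule.

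Several transcription factors higher in double-negative cells are best known from ectoderm or epithelium. Of the 10 neural and surface ectoderm markers 0 passed the rule, but 1 reached the 5 FPKM minimum, so this count says little. The 3 markers of at least 1 FPKM had log2 ratios of -0.60 (NES), -1.13 (SOX3) and -2.18 (DLX5). TFAP2A, a factor of surface ectoderm, neural crest and amnion, stood at 16.2 FPKM in double-negative cells against 0.0931 in double-positive cells and 0.0277 in hESC. FOXI3, a placode factor, was at 11.2 FPKM, listed at 0 in double-positive cells and at 0.137 in hESC. GRHL3, a surface ectoderm factor, was at 5.04 against 0.294 FPKM, near the 5 FPKM minimum, and is lost with either scaling. SALL3 stood at 22.6 against 3.02 FPKM. MSX2, a BMP-responsive homeodomain factor, was at 19.4 against 5.50 FPKM, while MSX1 was at 1.44 against 6.08, both short of the rule. Within the TFAP2, MSX and DLX family 2 of 4 members of at least 5 FPKM were lower in double-positive cells and 0 higher. TFAP2C, the other lower member, stood at 0.855 and 6.55 FPKM, with a log2 ratio of -1.94 when both libraries were set to equal sums. SNAI2 and its relatives SNAI1, ZEB1 and ZEB2 repress epithelial genes. SNAI2 was at 25.0 FPKM in double-positive cells and 0.529 in double-negative cells, ZEB2 at 4.68 and 0.145, ZEB1 at 2.80 and 0.0155, and SNAI1 at 9.62 and 4.2. Of these 4 SNAI2 alone passed the rule, while ZEB1 and ZEB2 lay under 5 FPKM in both libraries.

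Some families of pattern regulators were nearly silent. Of 39 HOX genes 4 reached 1 FPKM and 0 reached 5. HOXB6 (4.67 FPKM) and HOXB2 (3.97) had the highest levels of these in double-positive cells, and both were listed at 0 in double-negative cells and hESC. HOXB3 (1.96 and 0.0221 FPKM) and HOXB5 (1.57 and listed at 0) were the others, so all 4 belong to the HOXB cluster. Of 25 NK, CDX and PAX genes 3 reached 1 FPKM. Forkhead factors had 9 members of at least 5 FPKM, 0 higher, 1 lower (FOXI3) and a median of -0.08. FOXH1, the DNA-binding partner of NODAL-activated SMADs, was at 10.8 and 16.7 FPKM. FOXF1, of lateral mesoderm, was at 6.15 and 1.05 FPKM, short of the rule. Among Iroquois and sine oculis factors IRX3 was higher, at 12.5 and 0.639 FPKM.

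**Figure D3:**
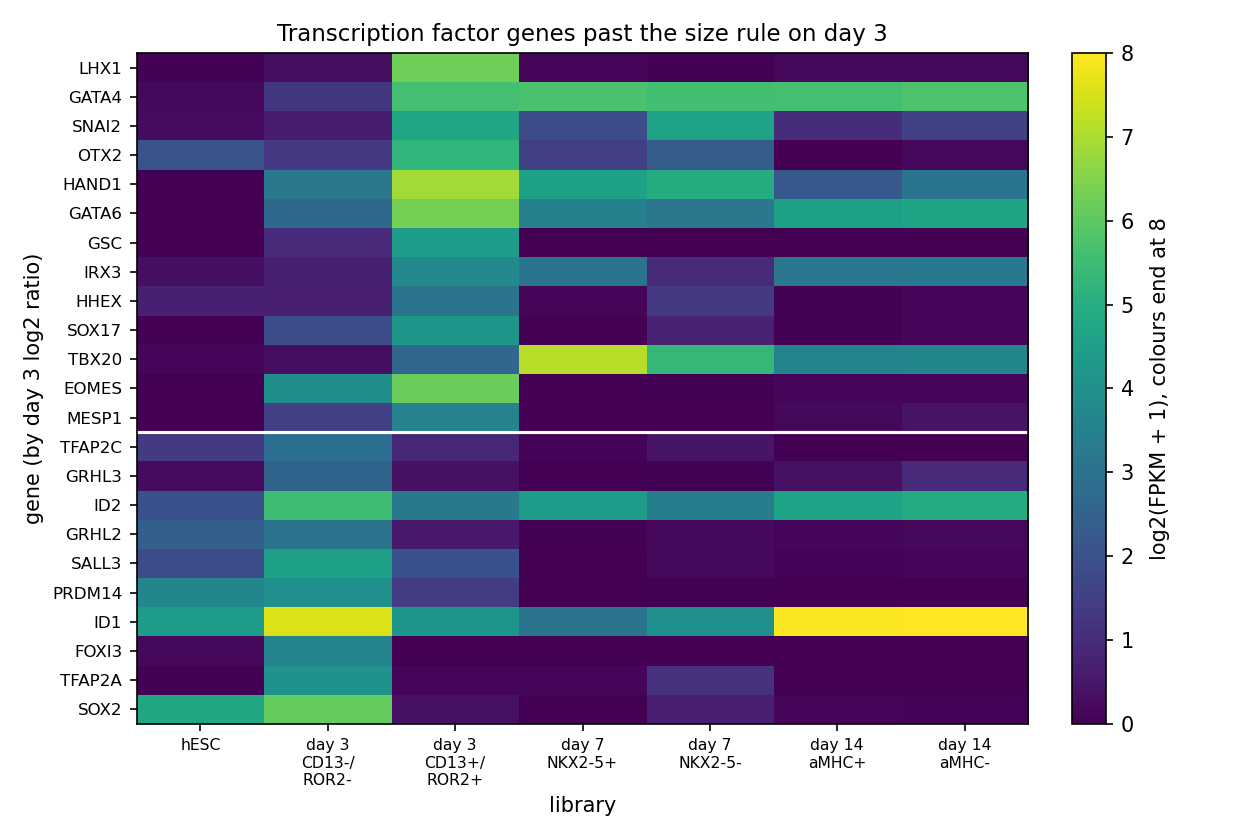
Levels of the transcription factor genes counted as different on day 3 and reported here (rows, ordered by day 3 ratio, with a white line between higher and lower genes) in the 7 libraries (columns), coloured by log2(FPKM + 1). LHX1 and GSC are bright in the CD13+/ROR2+ column alone, GATA4 stays bright to day 14, and TFAP2A and FOXI3 are bright in the CD13-/ROR2- column alone.

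Among the G protein-coupled group 4 of 9 members of at least 5 FPKM were higher and 0 lower: APLNR, CXCR4, CXCR7 and S1PR3. CXCR4, the chemokine receptor of migrating endoderm and mesoderm, stood at 10.2 FPKM in double-positive cells and 0.507 in double-negative cells. CXCR7 (now ACKR3), which binds the same chemokine, stood at 8.03 and 0.251 FPKM. S1PR3, a receptor for sphingosine-1-phosphate, was at 14.0 and 0.973 FPKM. LPHN2 (latrophilin) did not follow, at 13.0 and 15.5 FPKM. PLXNA2, a semaphorin receptor, was at 34.3 FPKM in double-positive cells, 0.744 in double-negative cells and 0.0966 in hESC. NRP2 (28.9 and 1.69 FPKM) and NRP1 (5.55 and 0.285), semaphorin and VEGF co-receptors, were higher as well (they are counted with the growth factor receptors), and both stayed above 5 FPKM in all 4 later libraries.

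Of 6 Eph receptors of at least 5 FPKM 3 were higher and 0 lower. EPHB2 stood at 19.5 FPKM in double-positive cells and 1.99 in double-negative cells, EPHA4 at 16.1 and 1.46, and EPHA2 at 12.5 and 2.36, the last with a log2 ratio of 1.92 after median-ratio scaling. EPHB3 lay just outside the rule, at 7.21 and 1.09 FPKM with a log2 ratio of 1.97. EPHA1 had the opposite sign, at 1.83 and 6.51 FPKM. Their ligands did not mirror this, and 0 of 3 ephrins of at least 5 FPKM passed. EFNA5 was at 6.63 and 3.57 FPKM and EFNA4 at 9.10 and 17.3.

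WNT receptors were mostly higher or similar in double-positive cells. Of 10 members of at least 5 FPKM 9 had ratios above 0, and 3 passed: LGR5, FZD7 and the sort gene ROR2. The list behind these counts also includes SMO, which belongs to Hedgehog signalling. LGR5, an R-spondin receptor and WNT target, stood at 49.8 FPKM in double-positive cells against 0.517 in double-negative cells and 0.503 or less in each of the other 5 libraries. FZD7 was at 35.0 and 3.21 FPKM, with 12.3 in hESC. FZD8 (12.6 and 2.62 FPKM) and FZD2 (9.05 and 1.88) came close, with log2 ratios of 1.91 and 1.80. FZD5 stood at 8.59 and 4.34 FPKM.

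Receptor tyrosine kinases and neuropilins gave 4 higher and 2 lower of 16. ERBB4, a neuregulin receptor of the developing heart, stood at 20.2 FPKM in double-positive cells, 0.0571 in double-negative cells and 0.0496 in hESC, and was at 2.41 to 5.93 FPKM in the later libraries. Its relative ERBB3 was lower, at 1.24 and 8.13 FPKM. PDGFRA, a receptor of early mesoderm, stood at 13.3 and 0.516 FPKM. FLT1, a VEGF receptor, was lower at 4.47 and 22.4 FPKM, and KDR, the VEGF receptor often used to find cardiovascular mesoderm, stood at 8.04 and 16.2 without passing. FGFR1 was at 13.9 and 34.3 FPKM. ERBB3 and FLT1 fell just short of the rule at equal sums, with log2 ratios of -1.94 and -1.99.

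Among TGF-beta family receptors 1 passed the rule. Of 11 members of at least 5 FPKM 0 were higher and 1 lower, BMPR1A, a type I BMP receptor, at 4.03 FPKM in double-positive cells and 19.7 in double-negative cells. Its log2 ratio of -2.04 was -1.93 at equal sums. The type II receptors BMPR2 (9.52 and 3.60 FPKM) and ACVR2A (6.14 and 1.76) had ratios above 0. TDGF1, the NODAL co-receptor, stood at 171 and 157 FPKM. Notch and Hedgehog receptors gave 0 of 4, with NOTCH3 at 6.62 and 18.4 FPKM and PTCH1, a Hedgehog receptor and target, at 5.92 and 4.33.

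**Figure D4:**
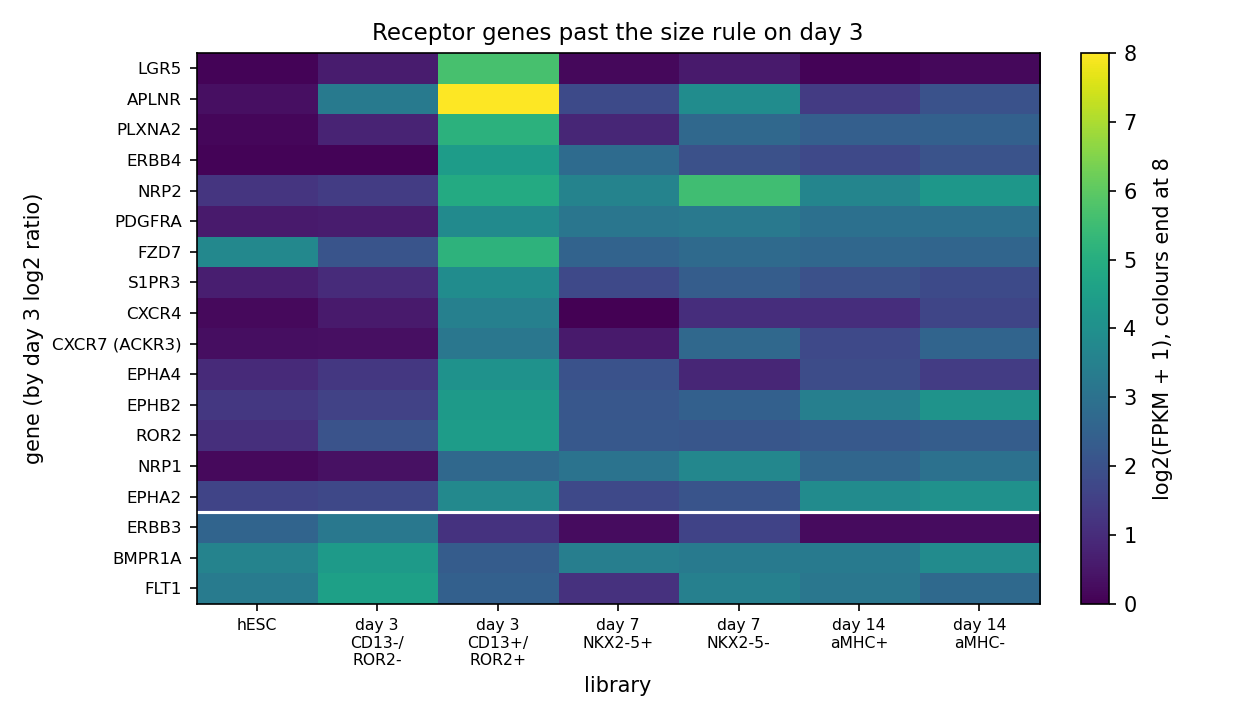
Levels of the 18 receptor genes counted as different on day 3 (rows, ordered by day 3 ratio, with a white line between the 15 higher and the 3 lower) in the 7 libraries (columns), coloured by log2(FPKM + 1). LGR5 is bright in the CD13+/ROR2+ column alone, while NRP2 and PDGFRA stay visible to day 14.

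The list of secreted NODAL and BMP antagonists gave 2 higher and 0 lower of 7, CER1 and BMPER. It also includes latent TGF-beta binding proteins (LTBP genes) and follistatin-like genes, and its median log2 ratio was -0.26. CER1, which binds and blocks NODAL and BMP ligands, stood at 1736 FPKM in double-positive cells, 11.7 in double-negative cells and 0.549 in hESC. In the later libraries it was at 1.05 to 3.77 FPKM. Of 6 secreted WNT modulators of at least 5 FPKM 4 were higher and 0 lower. DKK1, which blocks the LRP co-receptors, was at 33.8 and 0.920 FPKM, and DKK4 at 13.0 and listed at 0. SFRP1, a WNT-binding decoy, was at 38.0 and 0.879 FPKM but stood at 21.9 in hESC, so here double-negative cells make the low library. FRZB, another decoy, was at 5.27 and 0.213 FPKM, and fell under the minimum after median-ratio scaling. SFRP2 had the opposite sign without passing, at 28.5 and 112 FPKM, with 99.2 in hESC. BMPER, which binds BMPs outside the cell, was at 18.0 and 1.14 FPKM, while NOG and CHRD were below 1 FPKM in both.

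Ligands of the same pathways differed member by member. BMP2 stood at 30.8 FPKM in double-positive cells and 1.30 in double-negative cells, and BMP4 at 77.1 and 19.0, just short of the rule with a log2 ratio of 1.97 (2.09 at equal sums). GDF3, a ligand of stem cells, was lower at 2.24 and 20.1 FPKM. NODAL differed little, at 7.32 and 4.79 FPKM. LEFTY1, an inhibitor of NODAL, was higher at 9.92 and 1.34 FPKM, and LEFTY2 was at 16.9 and 4.22, short of the rule, but reads of these close paralogs may have been split either way. WNT5A, the ROR2 ligand, stood at 14.7 and 1.38 FPKM, WNT8A at 1.68 and 14.6, and WNT3 at 5.87 and 3.25. FGF17 was at 37.05 and 0.328 FPKM, and its relative FGF8, a streak FGF, at 4.49 and 0.399, under the minimum. FGF2 pointed the other way, at 0.903 and 6.34 FPKM.

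Growth factors and peptides of the double-negative fraction included several that double-positive cells nearly lacked. PDGFA stood at 19.4 FPKM in double-negative cells, 12.0 in hESC and 0.267 in double-positive cells. The gene listed as LOC100506013, which RefSeq names APELA and which encodes a peptide ligand of APLNR, stood at 51.6, 14.95 and 0.0973 FPKM in the same order. GAL (galanin) was at 317, 49.1 and 41.8 FPKM, and CXCL12, the chemokine read by CXCR4, at 22.6, 18.7 and 2.31. CYR61 (17.1, 1.84 and 1.54 FPKM) and CTGF (14.4, 3.40 and 2.49), matricellular targets of YAP, were high in double-negative cells only among these 3. In double-positive cells GRP, a bombesin-like peptide, stood at 68.1 FPKM against 0.872 in double-negative cells and 0.102 or less elsewhere, IGF2 at 13.96 against 0.868, and ANGPT2, a TIE2 ligand, at 8.22 against 0.0351.

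Semaphorins, slits and netrins gave 3 higher and 1 lower of 10. SEMA6A, a membrane-bound semaphorin, was at 5.17 FPKM in double-positive cells, 91.2 in double-negative cells and 44.5 in hESC. SEMA6D was the reverse, at 33.1, 2.04 and 0.186 FPKM. SEMA5A stood at 13.2 and 1.77 FPKM and NTN4, a laminin-binding netrin, at 7.01 and 0.329. NTN1 reached a log2 ratio of 2.03 but only 4.27 FPKM, against 0.294. DLL3, a Notch ligand that acts inside the cell, was at 16.7 and 2.06 FPKM, while DLL1 was at 0.876 and 1.28.

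Known ligand and receptor pairs were then set side by side, in a list of 49 pairs written after the values had been seen. In 5 pairs the ligand was lower and the receptor higher in double-positive cells: APELA with APLNR, CXCL12 with CXCR4, CXCL12 with CXCR7, PDGFA with PDGFRA, and SEMA6A with PLXNA2. The CXCL12 pairs share their ligand and are not separate cases. In 1 pair both genes were higher (WNT5A with ROR2), in 1 the ligand was higher and the receptor lower (BMP2 with BMPR1A), and in 0 both were lower. In 4 pairs the ligand alone passed the rule, in 14 the receptor alone, and in 24 neither did. ROR2 is a sort gene, so its level was set by the gate. These are levels of RNA in separate fractions, and contact or signalling between them was not measured.

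**Figure D5:**
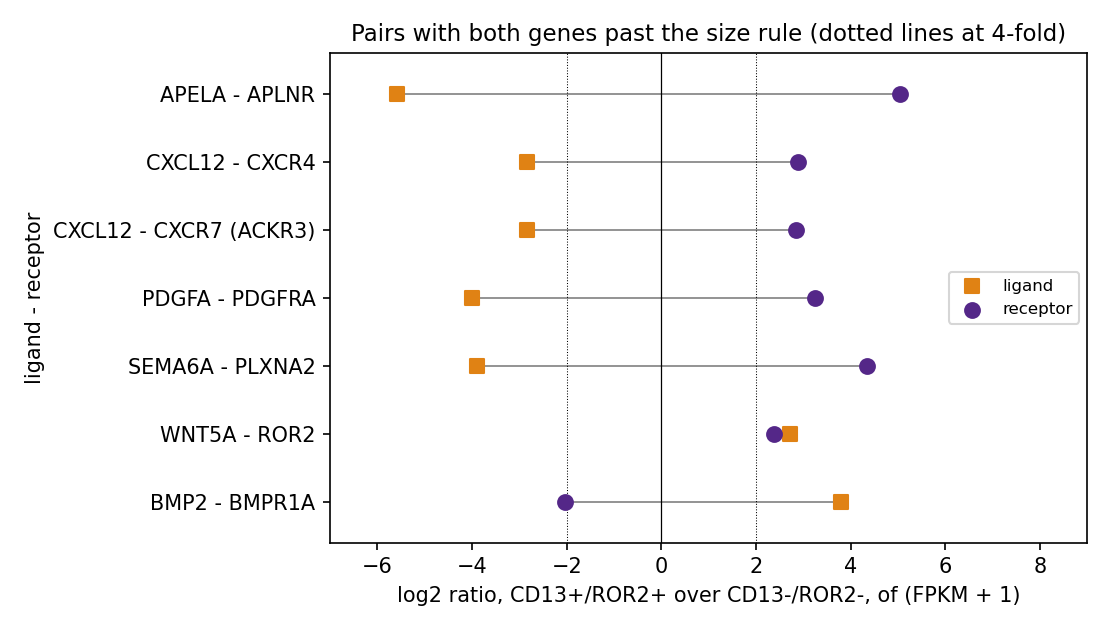
Log2 ratio of (FPKM + 1), CD13+/ROR2+ over CD13-/ROR2-, for ligand (orange squares) and receptor (purple circles) of the 7 pairs in which both genes passed the size rule, with dotted lines at 2 and -2. In the upper 5 pairs the ligand lies to the left and the receptor to the right.

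Within adhesion families some members were higher and others lower. Among classical cadherins of at least 5 FPKM, 2 were higher (CDH2 and CDH11) and 2 lower. CDH3, or P-cadherin, stood at 2.92 FPKM in double-positive cells and 16.6 in double-negative cells, and CDH1 at 3.15 and 45.05. CDH2, or N-cadherin, was at 63.9 and 6.28 FPKM, and CDH11, of mesenchyme, at 18.6 and 0.730. The protocadherins PCDH1 (1.66 and 21.7 FPKM) and PCDH11X (0.322 and 8.96) were lower. PCDH10 was at 24.7 and 17.9 FPKM against 0.720 in hESC, a level that both day 3 fractions shared. PCDH7 was at 9.48 and 2.71 FPKM.

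Integrins differed in the alpha chain. ITGA6, a laminin receptor chain of epithelial and stem cells, was at 2.02 FPKM in double-positive cells, 20.9 in double-negative cells and 34.7 in hESC. ITGA5, the fibronectin receptor chain, stood at 31.3, 6.89 and 2.88 FPKM, and ITGA9 at 21.2, 1.496 and 1.14. ITGA5 had a log2 ratio of 1.95 after median-ratio scaling, short of the rule. The shared beta chain ITGB1 was at 23.8 and 17.9 FPKM. Of the ligands of these chains, fibronectin (FN1) was at 58.1 and 50.4 FPKM, and laminin chains did not pass in either direction, with LAMA1 at 13.5 and 5.91 FPKM and LAMC1 at 10.6 and 24.6.

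Of 20 genes of the whole matrix family, fibronectin and laminins included, 4 were higher in double-positive cells and 1 lower, and the other 15 did not pass. MFAP4, a microfibril-associated protein, stood at 486 FPKM in double-positive cells and 49.6 in double-negative cells, both far above 2.85 in hESC. FBN2, which forms microfibrils, was at 45.7 and 3.78 FPKM, and FREM1, a basement membrane protein, at 15.8 and 0.807. Hyaluronan synthases took opposite sides, since HAS2 was at 114 and 9.53 FPKM and HAS3 at 0.567 and 7.26. Versican (VCAN), which binds hyaluronan, was at 25.9 and 83.7 FPKM without passing.

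Epithelial junction genes were lower in part. Of 9 tight junction and EPCAM genes of at least 5 FPKM 3 were lower, 0 higher, and 8 had ratios below 0. EPCAM was at 11.3 FPKM in double-positive cells and 50.3 in double-negative cells (log2 ratio -1.95 at equal sums), CLDN7 at 1.92 and 14.5, and MARVELD3, a tricellular junction relative, at 0.172 and 5.84. CLDN6 (26.5 and 37.2 FPKM) and TJP1 (28.1 and 33.8), an adaptor of the same junction, were abundant in both. Desmosome and gap junction genes gave 0 higher and 0 lower of 8. Desmoplakin (DSP) was at 20.4 and 20.7 FPKM, DSG2 at 28.1 and 29.4, and connexin 43 (GJA1) at 71.5 and 90.7.

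Immunoglobulin-like and leucine-rich adhesion genes gave 3 higher and 3 lower of 16. NCAM1 stood at 24.6 FPKM in double-positive cells, 1.13 in double-negative cells and 1.16 in hESC. FLRT3, which binds UNC5 receptors and FGF receptors, was at 17.6 and 0.843 FPKM, and CHL1 at 5.88 and 0.337. BCAM, a laminin-binding receptor, was at 0.826 and 11.3 FPKM, THY1 at 2.94 and 16.4 with 83.6 in hESC, and podocalyxin (PODXL), which carries stem cell surface epitopes, at 60.5 and 256 (log2 ratio -1.94 at equal sums).

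Levels in the libraries outside this pair separate the genes of the fractions. Of the 138 genes lower in double-positive cells, 86 (62.3%) stood at 5 FPKM or more in hESC and 8 (5.8%) under 1 FPKM. Those 8 are GRHL3, HTR3A, LDHD, FOXI3, HPGD, WNT8A, TFAP2A and ELF4. Of the 176 higher genes, 21 (11.9%) stood at 5 FPKM or more in hESC and 100 (56.8%) under 1 FPKM. Over all 5772 genes of at least 5 FPKM in either day 3 library, 76.6% were at 5 FPKM or more in hESC and 2.91% under 1.

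On day 7, 58 of the 176 higher genes (33.0%) stood at 5 FPKM or more in NKX2-5+ and 84 (47.7%) in NKX2-5-, against 50.3% and 67.7% over all 5772 genes. Of the 138 lower genes, 25 (18.1%) and 40 (29.0%) did. The muscle genes among those higher on day 3 included TMOD1, which caps actin filaments, at 46.6 and 0.820 FPKM on day 3 and 34.2 in day 7 NKX2-5+. MYL4, the atrial light chain, was at 17.3 and 0.322 FPKM on day 3 and 1169 in day 7 NKX2-5+. MYOCD, a coactivator of muscle genes, was at 5.10, 0.261 and 49.97 FPKM in that order, on day 3 near the 5 FPKM minimum. These muscle genes were picked after their values were seen.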

How the data were processed

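RNA-seq of 7 libraries, 1 per group, was deposited as a table of gene symbols by libraries. The values are FPKM, which the authors computed; Cufflinks and the build hg19 are named, per the submitters' processing notes. What is not given in the sources used here is the aligner, its version and the annotation. FPKM divides by transcript length and library total, so very short genes are inflated. For this reason 1683 small RNA (MIR, SNOR, SCARNA, RNU) and histone (HIST) symbols were left out, as were 106 genes with blank cells, which leaves 21579. Sorting was done 2 times in a row, per the labels' protocols, and the library kit does not mark strand, so overlapping antisense genes cannot be told apart.

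Groups were taken from sample titles. The ratio was log2 of (FPKM + 1) over (FPKM + 1), which understates differences of low genes; list medians use members of at least 1 FPKM. With 1 library per group, no test, p-value or SD is given. Genes named are the sort and marker genes, up to 5 members past the size rule in each direction per family (or the 2 most abundant where none pass), up to 4 per marker list and the 10 highest and 10 lowest ratios; some of these are not reported here, and further family members and genes were added for context after their values were seen. The members and lists were chosen with earlier results of these data known. Of 908 family genes 906 were found in the table. Relative depth comes from 2347 genes below 0.3 FPKM in both libraries. The code for the size rule was checked on simulated levels, which says nothing of replicate error. Alternatives were other pseudocounts and minimums, median-ratio scaling over 7780 genes, equal sums, and leaving out genes listed at 0. Promoters are 250 upstream bases of RefSeq entries of 300, matched by symbol, of another build than the files, and no coordinates of the files were used. Python 3.11.15, pandas 2.3.3 and matplotlib 3.10.9 were used.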

Additional observations from a re-analysis of the deposited data

How the results depend on the processing

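With a pseudocount of 5 the counts were 65 genes higher and 32 lower in place of 176 and 138, and 56 of 136 named genes dropped below the 4-fold size, because a larger pseudocount shrinks ratios of low genes. The other 6 alternatives kept both counts within 1.5 times: 133 to 229 higher and 97 to 200 lower. Median-ratio scaling (a shift of 0.08 on the log2 scale) gave 154 and 143 and equal sums 193 and 115; each took 7 named genes past the rule back under it, most of them given beside the results. Leaving out genes listed at 0 gave 171 and 135. No family median of at least 1 in size changed sign under any of the 7 alternatives, but this was nearly fixed in advance. A changed minimum cannot move these medians, another pseudocount cannot turn a member's sign, and both scalings shift ratios by far less than 1. The size of medians did change. With a pseudocount of 5, 7 of 45 family and marker list medians fell below 1 in size. With a pseudocount of 0.1, 7 rose to at least 1 in size, as did 1 at equal sums. Leaving out genes listed at 0 brought 1 below 1. No named gene past the rule changed sign either, but that was fixed in advance. Other pseudocounts, other minimums and leaving out genes listed at 0 cannot turn the sign of a gene's ratio. Both scalings shift ratios by far less than the 4-fold rule. No paired analysis was possible because each group has 1 library. Values under about 1 FPKM rest on few reads, and the CD13-/ROR2- library is the shallower one.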

Other observations

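Beyond the families described, several genes known from blood and immune cells were higher in CD13+/ROR2+; they were picked after their values were seen. GYPB, a glycophorin of red cells, stood at 73.7 FPKM in CD13+/ROR2+ and was listed at 0 in CD13-/ROR2- and hESC, and GYPE was at 30.3 and 0.141 FPKM, where reads of these near-identical paralogs may have been split either way. CD177, a neutrophil surface protein, stood at 16.1 and 0.418 FPKM, CD48 at 10.9 and 0.236, and the T cell kinase gene ZAP70 at 6.22 and listed at 0. The interferon-induced gene OAS1 was at 19.5 and 0.143 FPKM and APOBEC3G, a cytidine deaminase of immune cells, at 28.6 and 2.52. CD177, CD48 and OAS1 were below 0.1 FPKM in all 4 later libraries. Not all genes of this kind pointed that way. PF4, a platelet chemokine gene, was counted as lower, with a listed 0 for the double-positive fraction. The macrophage gene AIF1 had a log2 ratio of -1.97, just short of the rule on the lower side. Blood and immune genes were not counted as a set, so the genes picked give no direction for them. None of the 10 blood and endothelial markers reached 1 FPKM in either day 3 library.

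A few genes best known from neurons and secretory cells, also picked after their values were seen, were higher in CD13-/ROR2-. Of the 10 neural and surface ectoderm markers 0 passed the rule in either direction, but 1 reached the 5 FPKM minimum, so this count says little. NEFM, a neurofilament, stood at 13.8 FPKM in CD13-/ROR2-, 0.991 in CD13+/ROR2+ and 11.8 in hESC. KIF1A, an axonal motor, had levels of 12.4, 1.74 and 10.6 FPKM in that order, SCG3, a granin, at 9.76, 1.06 and 8.15, and TUBB4A, a neuronal tubulin, at 29.9, 1.02 and 11.7. The serotonin receptor genes HTR7 (11.5, 1.16 and 11.9 FPKM) and HTR3A (7.41, 0.0987 and 0.377) differed from each other in hESC.

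At the edge of the 4-fold rule, FIS1, EPHA2 and DUSP6 lay just inside on the higher side (log2 ratios of 2.003, 2.007 and 2.012) and SLC39A8, COCH and EPHB3 just outside (1.97 to 1.98). On the lower side USP44, GPC3 and NDUFV2 lay just inside (-2.0004, -2.007 and -2.01) and JARID2, AIF1 and PHLPP1 just outside (-1.96 to -1.97).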
